A study of Mus musculus with 7 samples.

Results

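The 43 genes described here encode the machinery that brings insulin granules to the plasma membrane of the β-cell and fuses them with it: SNAREs and the proteins that act on them, synaptotagmins, Rab GTPases and their effectors, priming factors, tethers and granule membrane proteins. The list follows their known function, and all 43 are among the 35013 gene symbols of the table. RNA-seq was performed on sorted β-cells of 3 db/+, 2 db/db and 2 Aldh1a3 KO_db/db animals, with 1 library per mouse and total counts between 27496645 and 35852785. All of them carried RIP-Cre Herr, a Cre transgene driven by a rat insulin promoter, and 1 Cre-dependent tdTomato reporter allele (tdT fl/+). In addition, the db/+ mice were Lepr db/+ and Aldh1a3 fl/+, the db/db mice Lepr db/db and Aldh1a3 fl/+, and the KO_db/db mice Lepr db/db and Aldh1a3 fl/fl. The controls thus also had 1 floxed allele of Aldh1a3, an aldehyde dehydrogenase of retinoic acid synthesis that serves as a marker of failing β-cells. Loss of the leptin receptor makes db/db mice obese and diabetic, whereas db/+ mice are lean carriers. Below, diabetic groups and diabetic libraries are those with Lepr db/db, that is db/db and KO_db/db. The term names this genotype and not the glucose level. The paper reports that KO_db/db mice had fasting glucose similar to db/+, and lower refed glucose and better glucose tolerance than db/db. The general methods give an age of 16 to 20 weeks, not stated for these libraries alone, and the animals were fasted for 16 hours before islets were isolated. The gate used to sort these cells is not given in the sources used here.

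Insulin is stored in dense-core granules that fuse with the plasma membrane when calcium enters the cell. A SNARE on the granule (a VAMP) zips together with a syntaxin and a SNAP protein on the plasma membrane, with Munc18 proteins (Stxbp genes) holding the syntaxin, Munc13 and CAPS proteins preparing the granule, complexins clamping the half-zipped complex and synaptotagmins sensing calcium. Rab3 and Rab27 on the granule bind effectors that bring it to the membrane, and NSF with α-SNAP takes the spent SNARE complexes apart.

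Levels are given as CPM, the count of a gene relative to the total of its library, scaled by the TMM method of edgeR over all 7 libraries. Changes are log2 fold changes ± standard error, positive where the group named first was higher, with p-values from edgeR's quasi-likelihood test adjusted by Benjamini-Hochberg over all genes tested, and a gene passed at an adjusted p under 0.05. db/db against db/+ and KO_db/db against db/+ share the db/+ libraries, and the db/db libraries enter both db/db against db/+ and KO_db/db against db/db, so the comparisons are not independent. In these bulk libraries, fewer cells of a type and less RNA per cell cannot be told apart. Separation of groups without overlap of libraries was common among all genes. Between db/db and db/+ it held for 64.3% of the exocytosis genes tested and 63.3% of all genes tested. These shares were 71.4% and 57.5% between KO_db/db and db/db, and 73.2% and 64.1% between KO_db/db and db/+. A lack of overlap is therefore given as a description of a gene and not as a test.

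The targeted gene Aldh1a3 was at 4.97 and 7.89 CPM in KO_db/db, 98.4 and 194 CPM in db/db, and 0.205, 0.0729 and 0.589 CPM in db/+ libraries. The 10 β-cell markers were high in all libraries but did not stay level, with sums of 395156 to 442753 CPM in db/+, 201612 and 224995 CPM in db/db, and 225589 and 297817 CPM in KO_db/db. Against db/+, 9 of the 10 fell in db/db and 7 in KO_db/db, where 18% and 17.9% of all genes tested fell. Markers of other cell types moved between the groups. The 39 acinar markers summed to 195258 and 17016 CPM in KO_db/db, 466 and 296 CPM in db/db, and 80.8, 375 and 137 CPM in db/+. The 4 delta cell markers, led by Sst, summed to 652 and 519 CPM in KO_db/db, 169 and 87.4 CPM in db/db, and 2331, 767 and 381 CPM in db/+. The PP cell marker Ppy was at 579 and 453 CPM in KO_db/db, 436 and 248 CPM in db/db, and 329, 200 and 93.9 CPM in db/+. Of the 6 Schwann and neural markers, Sox10 and Cdh19 were at 0 in all libraries, and the sum of the list, mostly Ncam1, was 32.2 to 35.8 CPM in db/+ and 57.4 to 93.5 CPM in the diabetic libraries, without overlap. The 8 duct markers summed to 186 to 202 CPM in db/+, 290 and 432 CPM in db/db, and 359 and 427 CPM in KO_db/db. This sum was mostly Krt7, at 174 to 192 CPM in db/+, 252 and 326 CPM in db/db, and 247 and 287 CPM in KO_db/db. The duct sum of both diabetic groups was above db/+. Of tested duct markers, 3 of 4 rose in db/db and 5 of 7 in KO_db/db, where 19.9% and 20.5% of all genes rose. Krt19 had means of 0.787 CPM in db/+ and 0.697 CPM in db/db, and was at 9.36 and 0.534 CPM in KO_db/db. Sox9 had means of 0.177, 0.154 and 1.00 CPM in db/+, db/db and KO_db/db. The sum of the alpha cell markers (753 to 1590 CPM) overlapped between all groups, but single markers moved. Of 5 tested against db/+, 1 rose and 1 fell in db/db, and 3 rose and 1 fell in KO_db/db, where 37.8% and 38.4% of all genes passed. Gc was at 62.1, 71.4 and 127 CPM in db/+, 675 and 737 CPM in db/db, and 297 and 204 CPM in KO_db/db. Slc7a2 was at 307, 334 and 244 CPM in db/+, 162 and 214 CPM in db/db, and 117 and 161 CPM in KO_db/db. The sums of endothelial (14.3 to 53.3 CPM), macrophage (21.9 to 74.9 CPM) and stellate (0.438 to 4.75 CPM) markers stayed low in all libraries. db/+ library 3 stood apart in 4 Y-linked genes, with 2911 counts in all against 20 to 79 in the other 6. Of these genes, Eif2s3y had 723 counts in db/+ library 3 and 0 in each of the others, the pattern of 1 male among females. The methods name male and female mice, so sex was mixed within db/+ only. Without db/+ library 3, 16 exocytosis genes passed in db/db against db/+ (38.1%, where 32.8% of genes did), and 18 did with it. In KO_db/db against db/+, 17 passed without it (41.5%, where 36.4% of genes did) and 20 with it. The part of any of these differences in the results on the exocytosis genes was not tested.

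To show regulatory sequence of members whose levels differed between the groups, the 250 bases before the RefSeq start of 5 genes are printed below, 5′ to 3′ on the strand of the gene, from RefSeq on GRCm38.p6. RefSeq promoter windows were matched for 32 of the 43 members. 6 motifs were searched on both strands in all 32851 windows of this length: the cAMP response element TGACGTCA (1.55% of windows), the NRF1 site, GCGC and GCGC with any 2 bases between (4.98%), the E-box CACGTG (6.02%), the left part of the neuron-restrictive element RE1, TTCAGCACC (0.301%), the GC box GGGCGG (32.7%) and the CCAAT box (33.8%). Among the 32 members with a window, 2 held the cAMP response element, 5 the NRF1 site, 7 the E-box, 1 the RE1 part, 23 the GC box and 12 the CCAAT box. A member was counted if any of its windows matched, whereas the percentages are shares of the 32851 windows of 27025 genes. The member counts and the percentages are therefore not on the same unit, and enrichment was not tested. Capitals mark the matches, and in the printed windows no base is shared by 2 different motifs. Snap23 (chr2:120567421-120567670, plus strand), Stx4a (chr7:127841558-127841807, plus strand) and Stxbp3 (chr3:108840503-108840752, minus strand) are shown because their transcripts were lower in db/db, Syt9 (chr7:107370540-107370789, plus strand) because its transcript was higher there, and Syn1 (chrX:20920919-20921168, minus strand), higher in KO_db/db than in db/+, because it holds both the cAMP response element and the RE1 part. Snap23 holds an NRF1 site and a CCAAT box, Stx4a GC boxes of which a pair overlap and a CCAAT box, Stxbp3 a cAMP response element, GC boxes and a CCAAT box, and Syt9 GC boxes. A match describes the letters in the window and does not show that a factor binds there.
Snap23: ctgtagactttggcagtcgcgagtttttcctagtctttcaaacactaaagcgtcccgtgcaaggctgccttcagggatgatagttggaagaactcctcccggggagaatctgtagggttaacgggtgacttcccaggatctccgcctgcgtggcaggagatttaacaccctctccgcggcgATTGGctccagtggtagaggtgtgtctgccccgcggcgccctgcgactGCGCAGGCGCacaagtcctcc
Stx4a: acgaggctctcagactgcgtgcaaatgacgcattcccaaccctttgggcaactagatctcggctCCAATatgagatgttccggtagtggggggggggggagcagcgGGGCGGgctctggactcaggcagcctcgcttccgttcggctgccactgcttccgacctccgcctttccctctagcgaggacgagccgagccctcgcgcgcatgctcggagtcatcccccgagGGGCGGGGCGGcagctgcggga
Stxbp3: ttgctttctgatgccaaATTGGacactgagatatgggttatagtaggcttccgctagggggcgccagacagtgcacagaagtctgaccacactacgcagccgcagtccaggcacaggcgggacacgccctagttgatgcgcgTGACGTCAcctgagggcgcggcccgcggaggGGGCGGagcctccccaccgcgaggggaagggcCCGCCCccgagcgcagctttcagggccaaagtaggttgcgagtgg
Syt9: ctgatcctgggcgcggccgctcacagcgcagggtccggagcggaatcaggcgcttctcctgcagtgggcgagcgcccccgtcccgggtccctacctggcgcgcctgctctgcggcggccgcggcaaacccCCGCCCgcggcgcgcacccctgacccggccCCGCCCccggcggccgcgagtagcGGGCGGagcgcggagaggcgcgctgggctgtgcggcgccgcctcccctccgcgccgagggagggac
Syn1: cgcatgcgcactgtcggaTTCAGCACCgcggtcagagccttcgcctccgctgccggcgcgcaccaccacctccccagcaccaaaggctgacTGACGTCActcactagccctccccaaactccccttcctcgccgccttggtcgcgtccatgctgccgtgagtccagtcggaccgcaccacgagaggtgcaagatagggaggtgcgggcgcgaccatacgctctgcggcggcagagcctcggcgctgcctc

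In db/db compared to db/+ β-cells, 9 of the 42 members tested rose and 9 fell. Together 18 (42.9%) passed, where 37.8% of the 13406 genes tested passed (19.9% higher and 18% lower). The median log2 fold change of the members was -0.0022, against 0.0064 over all genes tested, and their median absolute log2 fold change was 0.519, against 0.497. The falls included the plasma membrane SNARE Snap23, the granule SNARE Vamp3, the priming factor Cadps and the Rab GTPase Rab37. The rises included the calcium sensors Syt9, Syt5 and Syt7 and the Rab GTPases Rab3b and Rab27b. 14 of the 18 kept their call under every alternative. The call of Stx4a was lost without either db/db library and without db/+ library 2 or 3 (adjusted p = 0.0635 to 0.112, edgeR). The calls of Syt11, Rab3c and Erc1 were likewise lost without single libraries, as given with each gene.

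In KO_db/db compared to db/db β-cells, 0 of the 42 members tested passed in edgeR, where 0.319% of 13486 genes did. At an unadjusted p under 0.05, 17 members passed, where 20.9% of genes did. DESeq2 called 7 members (10% of its genes), a fit with no filter on low counts 7 (8% of genes) and a fit over all 7 libraries 6 (5.93% of genes). Snap23, Cadps, Rab37, Syt5 and Syt9 were called by each of these 3. The median log2 fold change of the members was 0.22, against -0.02 over all genes tested, and 29 of the 42 were positive.

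In KO_db/db compared to db/+ β-cells, 14 of the 41 members tested rose and 6 fell, 20 in all (48.8%), where 38.4% of the 13228 genes tested passed (20.5% higher and 17.9% lower). The median log2 fold change was 0.18, against -0.0034 over all genes tested. Rims2, Erc1, Cplx2, Cadps2, Rab3b, Syt7 and Exoc4 rose and Vamp3 fell, and these 8 kept their call under every alternative. The count dropped to 10 and 12 without the first and the second db/+ library (24.4% and 29.3%, where 26.2% and 27.1% of genes passed). It was 17 without db/+ library 3 (41.5%, where 36.4% of genes passed). Without the first and the second KO_db/db library, the median log2 fold change of the members was 0.16 and 0.26. The other 12 calls were each lost without at least 1 library.

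**Figure D1:**
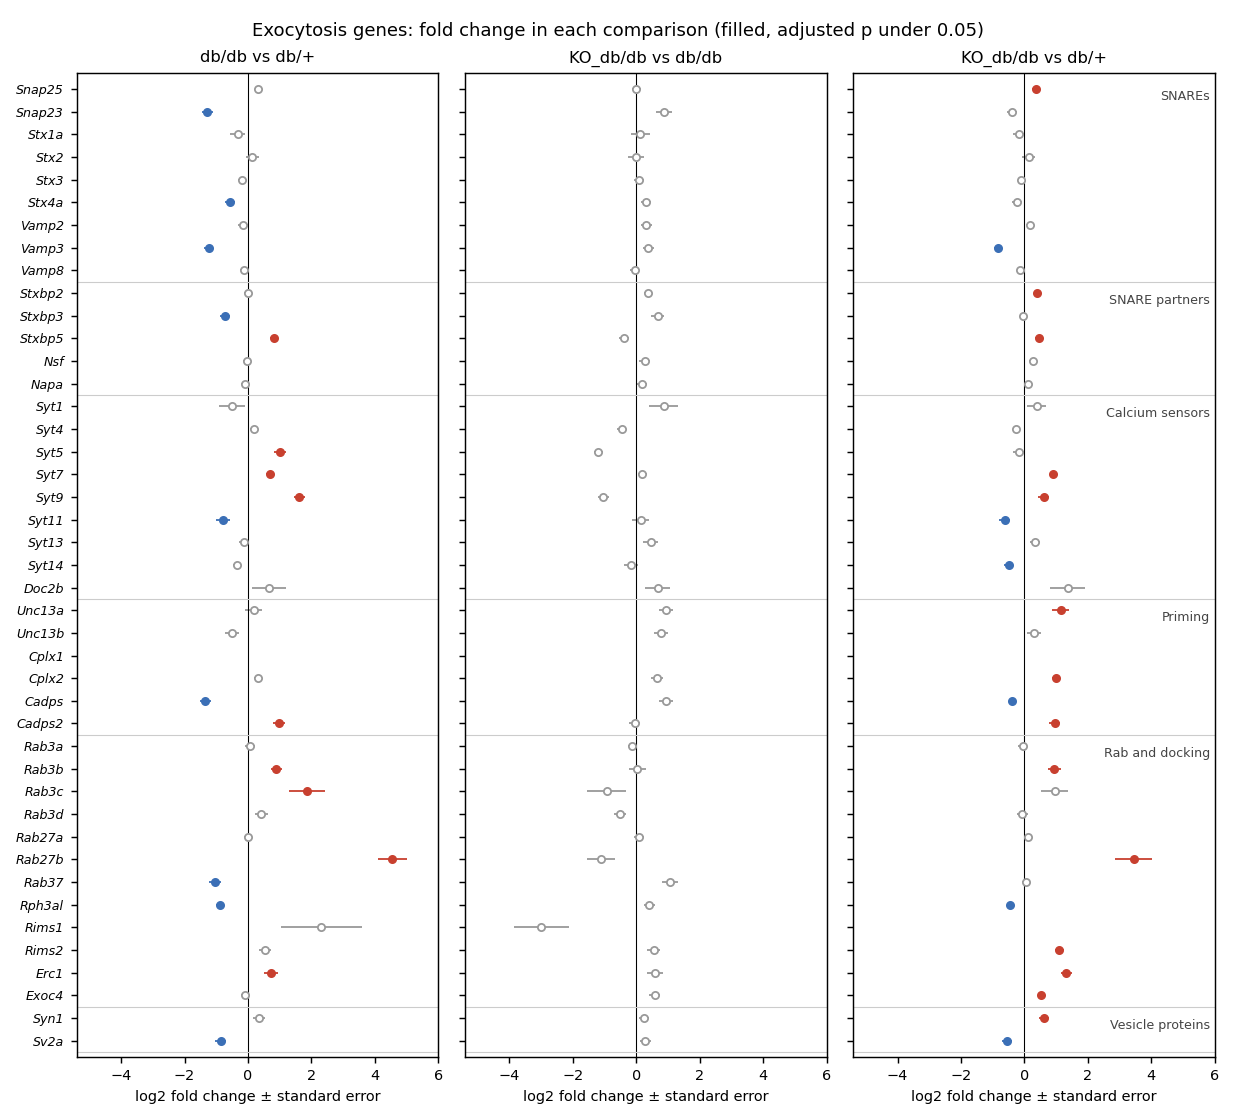
Log2 fold change (x axis, with its standard error as a bar) of each exocytosis gene (y axis, grouped by role) in the 3 comparisons. Filled symbols, red for higher and blue for lower, passed at an adjusted p under 0.05 and grey open symbols did not. 18 symbols are filled in db/db against db/+, 0 in KO_db/db against db/db, and the filled symbols of KO_db/db against db/+ number 20.

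The level of each gene per kilobase of exon placed Syt13, a synaptotagmin that does not bind calcium, first in each group, at 314 ± 14.7 CPM per kb in db/+ (SD, n = 3), 289 ± 50.6 in db/db (SD, n = 2) and 396 ± 26.4 in KO_db/db (SD, n = 2). Vamp2, the main granule SNARE of β-cells, followed in db/+ at 92.8 ± 10.3 CPM per kb (SD, n = 3). Napa (69.0 ± 6.60), which encodes α-SNAP, Rab27a (67.7 ± 2.70), Cplx2 (63.7 ± 1.16) and Snap25 (57.1 ± 3.92 CPM per kb) came next, where the libraries of Napa and Rab27a overlapped and those of Rab27a and Cplx2 did so narrowly, so these neighbours did not differ beyond their spread. Cplx2 stood second in KO_db/db, at 127 ± 3.90 CPM per kb, above Vamp2 at 105 ± 2.95, but by median transcript length Cplx2 ranked 5 there and Vamp2 3. Rab27b, Rims1 and Cplx1 were lowest in db/+, with 8 counts or fewer in each library. The order depended on which length was used: by the median length of its transcripts Syt7 ranked 3 in db/+, and by the length of all its exons 14. Syt13 stayed first by either length.

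**Figure D2:**
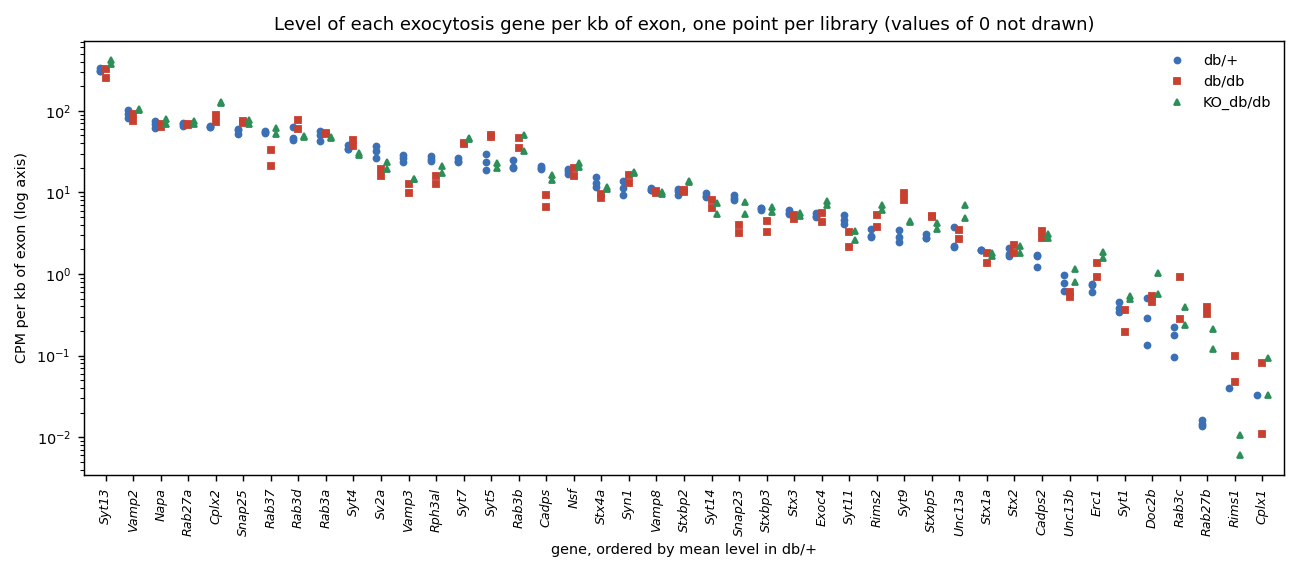
Level of each exocytosis gene in CPM per kb of exon (y axis, log scale), with genes on the x axis in the order of their mean in db/+ and 1 point per library (circles db/+, squares db/db, triangles KO_db/db; values of 0 are not drawn). Syt13 sits at the top in all libraries, at a mean of 314 CPM per kb in db/+.

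Among the SNAREs of the plasma membrane, Snap25, the partner of syntaxin in regulated secretion, was at 131, 118 and 134 CPM in db/+, 157 and 166 CPM in db/db, and 153 and 171 CPM in KO_db/db. Both diabetic groups were above all db/+ libraries. The log2 fold change was 0.33 ± 0.11 in db/db against db/+ (adjusted p = 0.0545) and 0.35 ± 0.11 in KO_db/db against db/+ (adjusted p = 0.0372, up to 0.184 without single libraries). Its ubiquitous relative Snap23 (GRCm38 chromosome 2, 120567671 to 120601255) was at 22.0, 25.6 and 23.8 CPM in db/+, 11.1 and 8.65 CPM in db/db, and 21.1 and 15.1 CPM in KO_db/db. The db/db libraries lay below all others and the KO_db/db libraries below all db/+ libraries. Snap23 fell in db/db, with a log2 fold change of -1.28 ± 0.16 (adjusted p = 0.00199). Its difference in KO_db/db was 0.87 ± 0.24 against db/db (adjusted p = 0.156 in edgeR and 0.0396 in DESeq2) and -0.39 ± 0.17 against db/+ (adjusted p = 0.105).

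Stx4a, a syntaxin of the plasma membrane, was at 17.8, 19.9 and 23.8 CPM in db/+, 14.5 and 13.3 CPM in db/db, and 17.7 and 17.0 CPM in KO_db/db. The db/db libraries were the lowest, and its log2 fold change in db/db was -0.57 ± 0.17 (adjusted p = 0.0344). Stx1a, the syntaxin of neuronal secretion, was between 2.94 and 4.30 CPM, Stx2 between 4.91 and 6.60 CPM and Stx3 between 21.5 and 27.4 CPM, and these 3 passed in no comparison.

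On the granule side, Vamp2 was between 214 and 302 CPM and Vamp8 between 22.1 and 26.2 CPM, and neither passed in any comparison. Vamp3, also named cellubrevin (chromosome 4, 151047300 to 151057963), was at 61.1, 56.1 and 50.6 CPM in db/+, 21.0 and 26.6 CPM in db/db, and 31.2 and 30.9 CPM in KO_db/db. Both diabetic groups lay below db/+, and the db/db libraries below those of KO_db/db. The log2 fold change was -1.24 ± 0.15 in db/db (adjusted p = 0.00178) and -0.84 ± 0.11 in KO_db/db (adjusted p = 0.00241), each against db/+. KO_db/db against db/db gave 0.38 ± 0.17 (adjusted p = 0.279).

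All 3 genes of the Munc18 and tomosyn group passed in at least 1 comparison. Stxbp3, or Munc18c, which binds Stx4a, was at 23.6, 25.2 and 25.3 CPM in db/+, 12.6 and 17.3 CPM in db/db, and 22.2 and 25.7 CPM in KO_db/db. The db/db libraries were the lowest and the other groups overlapped. It fell in db/db, with a log2 fold change of -0.73 ± 0.17 (adjusted p = 0.015), and was -0.04 ± 0.11 in KO_db/db against db/+ (adjusted p = 0.816).

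Stxbp5, or tomosyn, which blocks SNARE assembly, was at 25.3, 25.7 and 28.6 CPM in db/+, 46.6 and 46.9 CPM in db/db, and 32.7 and 39.3 CPM in KO_db/db, with no overlap between groups. It rose by 0.81 ± 0.11 in db/db (adjusted p = 0.00253) and 0.45 ± 0.12 in KO_db/db (adjusted p = 0.0257, up to 0.144 without the second KO_db/db library). Stxbp2, or Munc18b, was at 27.3, 30.6 and 32.3 CPM in db/+, 29.7 and 31.0 CPM in db/db, and 40.1 and 38.9 CPM in KO_db/db. The KO_db/db libraries were the highest, and the gain over db/+ was 0.40 ± 0.11 (adjusted p = 0.0266, up to 0.0971 without single libraries). Nsf ran from 59.7 to 87.0 CPM and Napa from 156 to 199 CPM, and neither passed in any comparison.

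**Figure D3:**
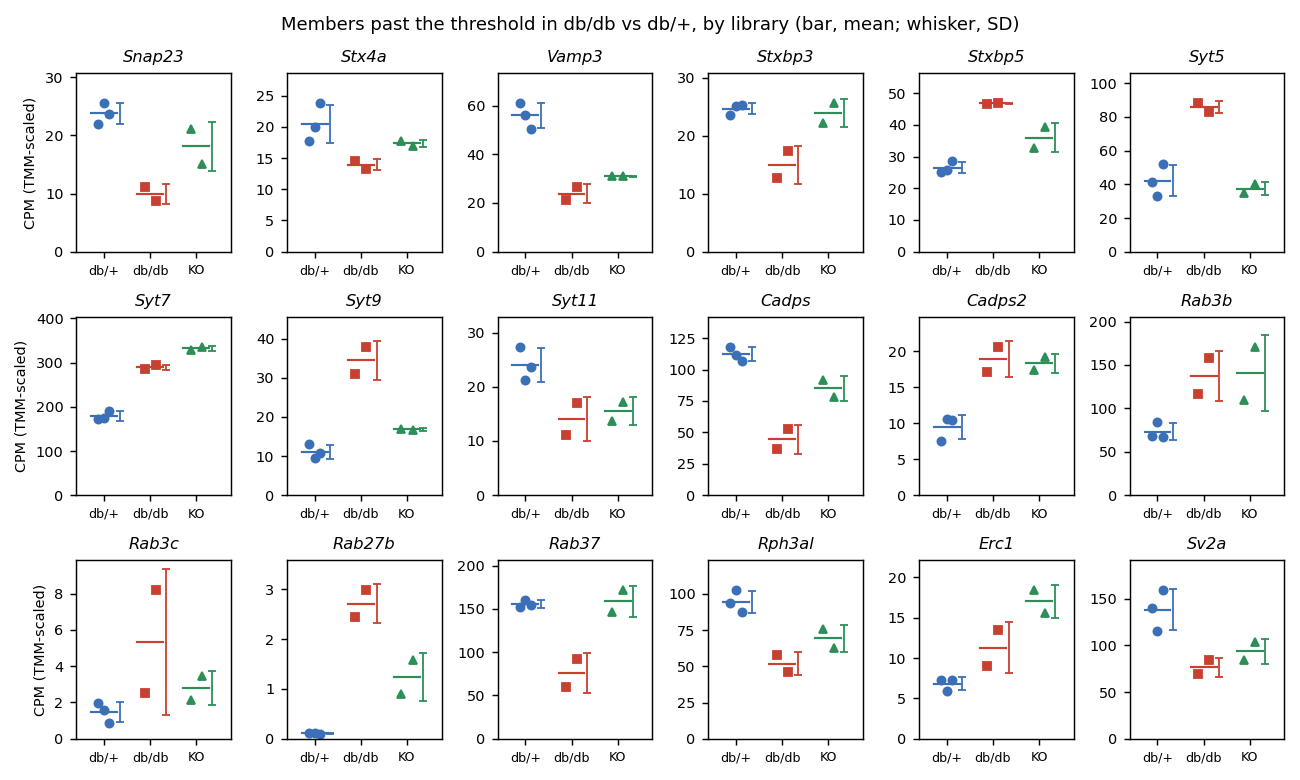
CPM (y axis, from 0) of the 18 genes that passed in db/db against db/+, with 1 point per library, a bar at the group mean and a whisker of 1 SD (n = 3 for db/+ and 2 for db/db and KO_db/db). The 9 genes that fell in db/db include Snap23, at 22.0 to 25.6 CPM in db/+ and 8.65 to 11.1 CPM in db/db. The 9 that rose include Syt9, at 9.52 to 13.1 CPM in db/+ and 30.9 to 38.0 CPM in db/db.

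Among the synaptotagmins that sense calcium, Syt7 (chromosome 19, 10389090 to 10453180), a high-affinity sensor of insulin release, was at 172, 174 and 191 CPM in db/+, 285 and 294 CPM in db/db, and 327 and 336 CPM in KO_db/db. Each diabetic library was above all db/+ libraries, and KO_db/db was above db/db. Syt7 rose by 0.68 ± 0.11 in db/db (adjusted p = 0.00397) and by 0.90 ± 0.10 in KO_db/db (adjusted p = 0.0016) against db/+, and KO_db/db against db/db gave 0.20 ± 0.15 (adjusted p = 0.491). An exon of Syt7 overlaps Gm26859 on the opposite strand, and whether the counting used strand is not given.

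Syt9 (chromosome 7, 107370728 to 107548656), a calcium sensor of dense-core granules, was at 13.1, 9.52 and 10.7 CPM in db/+, 30.9 and 38.0 CPM in db/db, and 17.0 and 16.5 CPM in KO_db/db. The groups did not overlap, with db/db highest. It rose in db/db by 1.62 ± 0.18 (adjusted p = 0.00128). In KO_db/db it was 0.60 ± 0.16 above db/+ (adjusted p = 0.0255, up to 0.0992 without single libraries), and against db/db the difference was -1.04 ± 0.17 (adjusted p = 0.0844 in edgeR and 0.000173 in DESeq2).

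Syt5 (chromosome 7, 4539765 to 4547541), a relative of Syt9 on secretory granules, was at 41.4, 33.2 and 52.1 CPM in db/+, 88.3 and 83.2 CPM in db/db, and 34.6 and 40.4 CPM in KO_db/db. The db/db libraries were the highest, and KO_db/db and db/+ overlapped. It rose in db/db by 1.01 ± 0.19 (adjusted p = 0.00708). KO_db/db differed from db/db by -1.20 ± 0.14 (adjusted p = 0.061 in edgeR and 2.27e-08 in DESeq2) and from db/+ by -0.16 ± 0.19 (adjusted p = 0.525).

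Syt11, a synaptotagmin that does not act as a calcium sensor, was at 27.4, 21.2 and 23.6 CPM in db/+, 11.2 and 16.9 CPM in db/db, and 13.7 and 17.3 CPM in KO_db/db. All diabetic libraries were below all db/+ libraries. The log2 fold change was -0.79 ± 0.22 in db/db (adjusted p = 0.0288, up to 0.0883 without the first db/db, db/+ library 1 or db/+ library 3) and -0.63 ± 0.16 in KO_db/db (adjusted p = 0.0228, up to 0.113). Syt14, a synaptotagmin without calcium binding, was at 81.4, 84.0 and 91.4 CPM in db/+, 74.5 and 60.6 CPM in db/db, and 50.7 and 70.1 CPM in KO_db/db. All diabetic libraries were again below db/+, and the fold change of -0.49 ± 0.15 in KO_db/db passed (adjusted p = 0.0379, up to 0.155 without single libraries) whereas that of -0.35 ± 0.13 in db/db did not (adjusted p = 0.0661). Syt1 (0.939 to 2.60 CPM), Syt4 (111 to 172 CPM), Syt13 (951 to 1559 CPM) and the calcium sensor Doc2b (0.589 to 4.44 CPM) passed in no comparison.

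Among the priming factors, Cadps (chromosome 14, 12372563 to 12823079), which encodes CAPS1, a priming protein of dense-core granules, was at 118, 111 and 107 CPM in db/+, 36.4 and 52.4 CPM in db/db, and 92.0 and 78.2 CPM in KO_db/db. The groups did not overlap, with db/db lowest. It fell in db/db, with a log2 fold change of -1.35 ± 0.17 (adjusted p = 0.00203), and was -0.39 ± 0.11 in KO_db/db against db/+ (adjusted p = 0.0257, up to 0.114 without single libraries). KO_db/db against db/db gave 0.93 ± 0.22 (adjusted p = 0.124 in edgeR and 0.00236 in DESeq2).

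Its paralog Cadps2 moved the other way, at 7.53, 10.5 and 10.5 CPM in db/+, 17.1 and 20.7 CPM in db/db, and 17.4 and 19.3 CPM in KO_db/db. Both diabetic groups were above db/+ and overlapped each other. Cadps2 rose by 0.98 ± 0.19 in db/db (adjusted p = 0.00929) and by 0.95 ± 0.18 in KO_db/db (adjusted p = 0.00775).

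Cplx2 (chromosome 13, 54371349 to 54383917), the complexin detected at high level, was at 309, 320 and 313 CPM in db/+, 359 and 436 CPM in db/db, and 637 and 610 CPM in KO_db/db. The 3 groups did not overlap and KO_db/db was highest. The difference was 0.33 ± 0.13 in db/db against db/+ (adjusted p = 0.0791), 1.00 ± 0.12 in KO_db/db against db/+ (adjusted p = 0.00176) and 0.65 ± 0.19 between KO_db/db and db/db (adjusted p = 0.166 in edgeR and 0.00392 in DESeq2). Cplx1 had 0, 2 and 0 counts in db/+, 6 and 1 in db/db, and 5 and 3 in KO_db/db, and was removed by the filter on low counts in each comparison.

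Unc13a, or Munc13-1, was at 22.1, 22.8 and 39.0 CPM in db/+, 27.7 and 36.0 CPM in db/db, and 72.2 and 50.7 CPM in KO_db/db. The KO_db/db libraries were the highest, and db/+ and db/db overlapped. Its rise in KO_db/db over db/+ was 1.14 ± 0.28 (adjusted p = 0.0186, up to 0.106 without single libraries), and the difference from db/db was 0.94 ± 0.23 (adjusted p = 0.135 in edgeR and 0.00514 in DESeq2). An exon of Unc13a overlaps Colgalt1 on the opposite strand. Unc13b, or Munc13-2, ran from 9.16 to 20.03 CPM and passed in no comparison, although without the filter on low counts edgeR called it in KO_db/db against db/db (0.78, adjusted p = 0.0418).

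Of the Rab GTPases, Rab3a (75.7 to 102 CPM), Rab3d (172 to 309 CPM) and Rab27a (205 to 241 CPM) passed in no comparison. Rab3b was at 68.5, 84.5 and 66.9 CPM in db/+, 117 and 158 CPM in db/db, and 110 and 171 CPM in KO_db/db. Both diabetic groups lay above db/+ and overlapped each other, with gains of 0.90 ± 0.17 in db/db (adjusted p = 0.00736) and 0.95 ± 0.20 in KO_db/db (adjusted p = 0.0115). An exon of Rab3b overlaps 8030443G20Rik on the opposite strand, and an exon of Rab27a overlaps Gm27186 on the same strand. Rab3c was at 1.96, 1.57 and 0.866 CPM in db/+, 2.49 and 8.19 CPM in db/db, and 2.13 and 3.47 CPM in KO_db/db. Its rise of 1.86 ± 0.56 in db/db (adjusted p = 0.0377) rested on the second db/db library, without which the change was 0.75 (adjusted p = 0.342), and the call was also lost without each db/+ library in turn.

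Rab27b (chromosome 18, 69979131 to 70141605), the paralog of Rab27a, had 3, 3 and 3 counts in db/+, 83 and 125 in db/db, and 22 and 65 in KO_db/db. All db/+ libraries were at the floor of 3 counts and all diabetic libraries above it, so the gene passed the filter through the groups where it was high. The scaled ratio of db/db to db/+ counts was 24.6 (95% interval 12.7 to 54.5) and that of KO_db/db to db/+ was 11.9 (5.99 to 26.9), where the exact intervals cover counting error only. In edgeR the adjusted p was 0.00105 in db/db and 0.00526 in KO_db/db against db/+, the latter 0.0596 without the second KO_db/db library. Per kilobase of exon, Rab27b was at 0.324 and 0.397 CPM in db/db, where Rab27a was at 66.3 and 69.4 CPM per kb.

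Rab37 (chromosome 11, 115091431 to 115162236), a Rab GTPase found on insulin granules, was at 152, 161 and 154 CPM in db/+, 59.8 and 92.4 CPM in db/db, and 147 and 172 CPM in KO_db/db. The db/db libraries were the lowest, and KO_db/db and db/+ overlapped. It fell in db/db, with a log2 fold change of -1.04 ± 0.19 (adjusted p = 0.0068), and was 0.04 ± 0.11 in KO_db/db against db/+ (adjusted p = 0.8). KO_db/db against db/db gave 1.06 ± 0.24 (adjusted p = 0.123 in edgeR and 0.000646 in DESeq2).

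Of the Rab effectors and scaffolds of the fusion site, Rph3al, or Noc2, which binds Rab3 and Rab27, was at 93.9, 103 and 87.4 CPM in db/+, 57.6 and 46.2 CPM in db/db, and 75.9 and 62.6 CPM in KO_db/db. The 3 groups did not overlap, and db/db was lowest. The fold change was -0.88 ± 0.14 in db/db (adjusted p = 0.0038) and -0.44 ± 0.12 in KO_db/db (adjusted p = 0.027, up to 0.115 without single libraries).

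Rims2 (chromosome 15, 39198261 to 39684372), which links Rab3 to the release site, was at 22.0, 23.2 and 27.7 CPM in db/+, 29.4 and 41.3 CPM in db/db, and 48.3 and 55.4 CPM in KO_db/db. Libraries did not overlap between groups, in the order db/+, db/db and KO_db/db. The gain over db/+ was 0.53 ± 0.18 in db/db (adjusted p = 0.0581) and 1.10 ± 0.13 in KO_db/db (adjusted p = 0.00181), and KO_db/db against db/db gave 0.55 ± 0.21 (adjusted p = 0.224). Rims1 had 0, 0 and 8 counts in db/+, 11 and 28 in db/db, and 1 and 3 in KO_db/db. It passed in neither comparison in which it was tested and was filtered out of KO_db/db against db/+.

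Erc1, or ELKS, a scaffold that binds RIM proteins (chromosome 6, 119570796 to 119848167), was at 7.33, 5.91 and 7.24 CPM in db/+, 9.04 and 13.5 CPM in db/db, and 18.4 and 15.6 CPM in KO_db/db. The order of the groups was the same as for Rims2, again without overlap. It rose by 0.72 ± 0.22 in db/db (adjusted p = 0.0436, but 0.238 with a change of 0.39 without the second db/db library, and lost as well without each db/+ library in turn) and by 1.32 ± 0.16 in KO_db/db (adjusted p = 0.00196). An exon of Erc1 overlaps Gm44317 on the opposite strand. Exoc4, or Sec8, of the exocyst tether was at 33.9, 35.4 and 38.0 CPM in db/+, 29.8 and 37.7 CPM in db/db, and 48.0 and 53.8 CPM in KO_db/db. The KO_db/db libraries were the highest, with a gain of 0.51 ± 0.10 over db/+ (adjusted p = 0.00956) and of 0.59 ± 0.17 over db/db (adjusted p = 0.165).

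Of the vesicle proteins, Sv2a, a transmembrane glycoprotein of granules, was at 140, 115 and 159 CPM in db/+, 69.2 and 83.9 CPM in db/db, and 83.9 and 103 CPM in KO_db/db. All diabetic libraries were below db/+, and the change was -0.86 ± 0.17 in db/db (adjusted p = 0.00921) and -0.56 ± 0.16 in KO_db/db (adjusted p = 0.0345, up to 0.19 without single libraries). Syn1, or synapsin I, was at 36.9, 30.8 and 45.2 CPM in db/+, 54.6 and 42.5 CPM in db/db, and 59.4 and 56.6 CPM in KO_db/db. The KO_db/db libraries were the highest and db/db overlapped db/+. The gain of 0.63 ± 0.16 in KO_db/db over db/+ passed (adjusted p = 0.0216, up to 0.0935 without single libraries), and that of 0.36 ± 0.19 in db/db did not (adjusted p = 0.182). An exon of Syn1 overlaps Araf on the opposite strand.

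Ratios of counts between paralogs within a library do not depend on how libraries are scaled. Snap23 over Snap25 was 0.169, 0.217 and 0.177 in db/+, 0.0710 and 0.0520 in db/db, and 0.138 and 0.0882 in KO_db/db, so the groups did not overlap. Cadps2 over Cadps was 0.0637, 0.0945 and 0.0977 in db/+, 0.471 and 0.395 in db/db, and 0.190 and 0.247 in KO_db/db, with db/db highest and KO_db/db between the other groups. Vamp3 over Vamp2 was 0.234, 0.240 and 0.173 in db/+, 0.0806 and 0.124 in db/db, and 0.107 and 0.102 in KO_db/db. Here the diabetic groups overlapped, both below db/+.
Unc13b over Unc13a was 0.620, 0.479 and 0.434 in db/+, 0.331 and 0.292 in db/db, and 0.277 and 0.275 in KO_db/db, highest in db/+ and lowest in KO_db/db. Syt9 over Syt7 was 0.0759, 0.0546 and 0.0562 in db/+, 0.108 and 0.129 in db/db, and 0.0520 and 0.0491 in KO_db/db, with db/db highest. Of the other pairs drawn, Vamp8 over Vamp2, Stx3 over Stx1a and Stx4a over Stx1a overlapped between db/db and db/+. Rab3d over Rab3a was 2.06, 2.28 and 2.46 in db/+, 3.22 and 2.59 in db/db, and 2.28 and 2.27 in KO_db/db. Pairs with a count at or under the floor of 3 in some library were left out. These ratios are descriptions and were not tested.

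**Figure D4:**
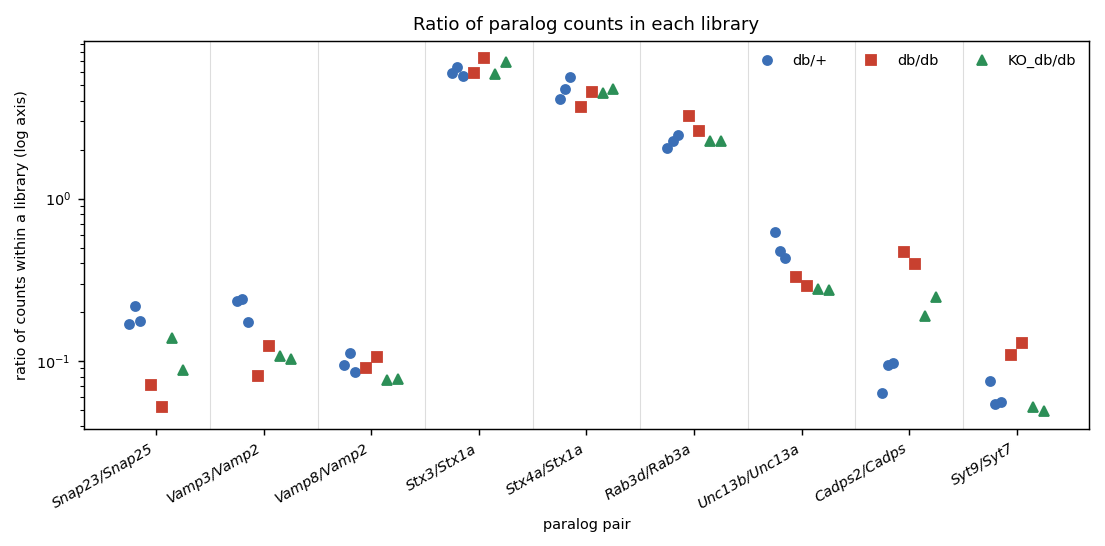
Ratio of the counts of paralogs (y axis, log scale) for the pairs named on the x axis, with 1 point per library (circles db/+, squares db/db, triangles KO_db/db). The Cadps2 over Cadps ratio is 0.0637 to 0.0977 in db/+ and 0.395 to 0.471 in db/db, the widest gap in fold between these groups among the pairs drawn.

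Acinar cells secrete enzyme granules and use Vamp8, Snap23, Stx3, Stxbp2 and Rab3d among their own SNAREs, SNARE partners and Rab GTPases. While the 39 acinar markers differed between the KO_db/db libraries at 195258 and 17016 CPM, Vamp8 was at 22.1 and 23.3 CPM, Stx3 at 23.0 and 25.0 CPM, Stxbp2 at 40.1 and 38.9 CPM and Rab3d at 197 and 191 CPM in the same libraries. Snap23 was higher in the library with more acinar RNA, at 21.1 against 15.1 CPM. With library scaling computed without the acinar and Reg genes, 18, 0 and 20 members passed in the 3 comparisons, the counts given above. This setting changes the scaling only and takes no acinar RNA out of the count of a member. It therefore cannot show what acinar RNA adds to these genes, which was not tested. The delta cell markers, which were lowest in db/db, differed between db/+ libraries from 381 to 2331 CPM, while Snap23 in these libraries ran from 22.0 to 25.6 CPM, Stxbp3 from 23.6 to 25.3 CPM, Stx4a from 17.8 to 23.8 CPM, Syt11 from 21.2 to 27.4 CPM, Cadps from 107 to 118 CPM, Rab37 from 152 to 161 CPM, Rph3al from 87.4 to 103 CPM and Sv2a from 115 to 159 CPM. Vamp3, the other gene that fell in db/db, was at 61.1, 56.1 and 50.6 CPM in the db/+ libraries with delta sums of 2331, 767 and 381 CPM, in the same order. Cadps, at 118, 111 and 107 CPM in these libraries, followed that order too, whereas Stx4a and Stxbp3 ran in the reverse order. The part of delta cell RNA in these changes was not tested.

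**Figure D5:**
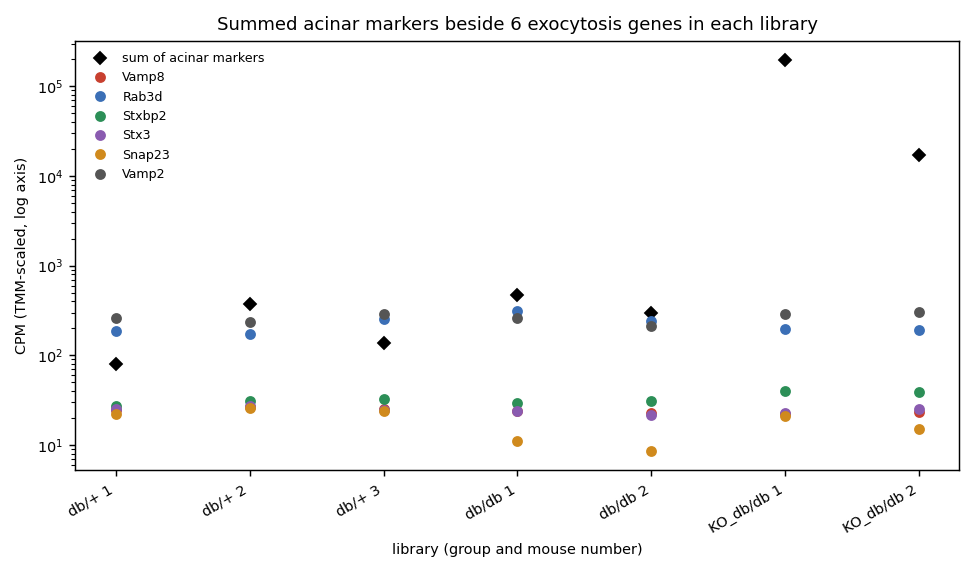
Summed CPM of the 39 acinar markers (black diamonds) and CPM of 6 exocytosis genes (coloured circles) on a log y axis, for each library on the x axis. The acinar sum spans 80.8 to 195258 CPM, while Vamp8 stays between 22.1 and 26.2 CPM.

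Other genes of exocytosis were read from the same fits. Of 66 such genes outside the 43, 65 are in the table. In db/db against db/+, 16 rose and 10 fell of 48 tested (54.2%, where 37.8% of all genes passed). Against db/+, 20 rose and 8 fell in KO_db/db of 52 tested (53.8%, where 38.4% of all genes passed). Between KO_db/db and db/db, 0 of 50 passed in edgeR (0.319% of all genes), and 14 did at an unadjusted p under 0.05 (20.9% of all genes). The median log2 fold changes were 0.01, 0.48 and 0.18 in this order, against 0.0064, -0.0034 and -0.02 over all genes tested.

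The largest rises past the threshold in db/db were in Lin7a, Bsn and Syn3. Lin7a, a scaffold of cell junctions, had 0, 0 and 1 counts in db/+ and 150 and 192 in db/db, a scaled ratio of 364 with an exact interval from 64.8 to 14400 that covers counting error only. Its db/+ libraries were under the floor of 3 counts, so it passed the filter through the groups where it was high. Bsn, or bassoon, a scaffold of the presynaptic active zone, was at 6.92, 7.15 and 9.11 CPM in db/+, 88.3 and 49.4 CPM in db/db, and 33.1 and 35.0 CPM in KO_db/db. It rose by 3.14 ± 0.26 in db/db and by 2.14 ± 0.15 in KO_db/db (adjusted p = 0.000681 and 0.000636), and its groups did not overlap. Syn3, a synapsin, rose by 2.20 ± 0.49 in db/db (adjusted p = 0.0138), from 0.246, 0.255 and 0.346 CPM in db/+ to 1.44 and 1.22 CPM. This call was lost without either db/db library. Its counts were 6, 7 and 10 in db/+ and 49 and 51 in db/db, so it too passed the filter through the group where it was high.

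The largest falls past the threshold in db/db were in Stxbp5l, Cplx3 and Mlph. Stxbp5l had 8 and 0 counts in db/db and Cplx3 had 6 and 1. Both passed the filter on low counts through db/+, where they were high. Stxbp5l, a second tomosyn, was at 6.55, 5.80 and 2.25 CPM in db/+, 0.235 and 0 CPM in db/db, and 0.369 and 0.728 CPM in KO_db/db. Its level was below that of db/+ in all diabetic libraries, with a change of -5.44 ± 1.02 in db/db (adjusted p = 0.00764) that depends on the prior count. Cplx3, a complexin, changed by -4.40 ± 1.08 in db/db (adjusted p = 0.0194, up to 0.0762 without single libraries), from 2.58, 3.14 and 0.554 CPM to 0.176 and 0.0239 CPM. Mlph, or melanophilin, a Rab27 effector, was at 13.5, 19.7 and 15.4 CPM in db/+, 3.17 and 1.27 CPM in db/db, and 9.69 and 8.96 CPM in KO_db/db. No libraries of different groups overlapped, and it fell in db/db, with a log2 fold change of -2.89 ± 0.40 (adjusted p = 0.00266).

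The next 3 genes were chosen after their values were seen. Sytl4, or granuphilin, a Rab27 effector that docks insulin granules, was at 383, 335 and 280 CPM in db/+, 63.6 and 68.3 CPM in db/db, and 156 and 125 CPM in KO_db/db. The groups did not overlap, with a change of -2.35 ± 0.17 in db/db (adjusted p = 0.000492) and of -1.24 ± 0.18 in KO_db/db (adjusted p = 0.0031) against db/+. KO_db/db against db/db gave 1.09 ± 0.16 (adjusted p = 0.0844). Baiap3, of the Munc13 family, was at 84.1, 105 and 102 CPM in db/+, 16.5 and 23.5 CPM in db/db, and 146 and 65.8 CPM in KO_db/db. The db/db libraries were the lowest and those of KO_db/db lay on either side of db/+, with a change of -2.29 ± 0.20 in db/db (adjusted p = 0.000712) and of 0.13 ± 0.31 in KO_db/db against db/+ (adjusted p = 0.759). Pclo, or piccolo, a relative of bassoon, was at 54.1, 51.1 and 61.5 CPM in db/+, 128 and 126 CPM in db/db, and 158 and 155 CPM in KO_db/db. The groups did not overlap, with a rise of 1.18 ± 0.11 in db/db (adjusted p = 0.000998) and of 1.50 ± 0.10 in KO_db/db (adjusted p = 0.000635).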

How the data were processed

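Poly-A RNA-seq data of sorted β-cells of 3 db/+, 2 db/db and 2 Aldh1a3 KO_db/db animals were used, grouped by the labels of the samples. Per the labels, the authors used bcl2fastq 2.19 and kallisto 0.44.0, and the methods name GRCm38. The authors deposited estimated counts per gene as whole numbers, without normalization. The annotation release and the use of strand are not given in the sources used here. The table holds 35013 symbols, and 0 columns were left unused.

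From these, every comparison was fitted on the libraries of its 2 groups in R 4.3.3 with edgeR 4.0.16 (filterByExpr with a minimum count of 10, TMM, quasi-likelihood test, Benjamini-Hochberg adjustment, threshold 0.05). The standard error is the absolute log2 fold change divided by the root of F. DESeq2 1.42.0 was an alternative. A count of 3 was taken as the detection floor, which equals 0.0717 to 0.123 CPM. Lengths and coordinates came from GENCODE (basic set, GRCm38), to which all 43 members matched. Replicates differed beyond sampling noise (chi-square per degree of freedom 18.4 to 425). The fits were tested on simulated data.

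The members and lists were chosen with earlier results of these data known. Values per library are given for each member that passed in any comparison and the others by range. Of other genes, the 3 largest rises and falls past the threshold in db/db against db/+ are named, with exceptions stated. The alternatives were RLE scaling, DESeq2, no filter, 1 fit of all 7 libraries, a block for the number of the mouse, scaling without acinar and Reg genes, and leaving out each library.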

Additional observations from a re-analysis of the deposited data

How the results depend on the processing

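With db/db against db/+, the alternatives other than leaving out a library called 17 to 21 members against 18 (40.5% to 50%, where 26.8% to 38.3% of genes passed). Leaving out single db/+ libraries gave 15 to 16 (35.7% to 38.1%, where 25% to 32.8% of genes passed). Without the first and the second db/db library, the median log2 fold change of the members was 0.03 and -0.03. In KO_db/db against db/db, 0 passed with RLE scaling, with scaling without acinar and Reg genes, with the block and without any single library, but DESeq2 called 7, no filter on low counts 7 and all 7 libraries in 1 fit 6. In KO_db/db against db/+, the count was 20. It ran from 18 to 21 under the alternatives other than the block and leaving out a library (42.9% to 51.2%, where 27.5% to 38.4% of genes passed). Without single db/+ libraries it ran from 10 to 17 (24.4% to 41.5%, where 26.2% to 36.4% of genes passed). A group left with 1 library was assumed to vary like the other group. The mouse number as a replicate block gave 17, 0 and 13 calls in the 3 comparisons. These were 40.5%, 0% and 31.7% of the members tested, where 33.7%, 0.163% and 28.6% of all genes tested passed. Mice that shared a number deviated from their group means with correlations from -0.102 to 0.0759, and mice with different numbers from -0.0759 to 0.102. In a group of 2 libraries the 2 deviations mirror each other, so these values cannot decide whether the numbers paired the mice. No log2 fold change of a member called by edgeR changed sign under any alternative. With 2 or 3 mice per group, leaving out a mouse also lowers the number of samples tested, and genes removed by the filter on low counts, such as Cplx1, are absent from the fits that use it. The cause of the other changes was not tested.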

Other observations

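SNAREs and Munc18 relatives that serve membranes other than the plasma membrane (endoplasmic reticulum, Golgi, endosomes and lysosomes) fell more often than they rose. Of 28 such genes 27 were tested. In db/db compared to db/+ 1 rose and 10 fell, where 37.8% of all genes passed (18% lower), and in KO_db/db compared to db/+ 1 rose and 12 fell, where 38.4% passed (17.9% lower). The median log2 fold change was -0.20 and -0.34, against 0.0064 and -0.0034 over all genes tested. In KO_db/db compared to db/db 0 passed in edgeR (0.319% of all genes) and 6 did at an unadjusted p under 0.05 (20.9% of all genes).

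Vamp4, a SNARE of the trans-Golgi network, was at 53.2, 53.1 and 52.3 CPM in db/+, 26.7 and 23.7 CPM in db/db, and 33.7 and 35.9 CPM in KO_db/db. The groups did not overlap, and the log2 fold change was -1.08 ± 0.11 in db/db (adjusted p = 0.00105, edgeR) and -0.60 ± 0.09 in KO_db/db (adjusted p = 0.00357) against db/+. Vti1a, a SNARE of the Golgi and endosomes, was at 16.1, 18.4 and 16.7 CPM in db/+, 8.83 and 8.12 CPM in db/db, and 10.3 and 11.6 CPM in KO_db/db, again without overlap. Its log2 fold change was -1.02 ± 0.14 in db/db (adjusted p = 0.00282) and -0.63 ± 0.13 in KO_db/db (adjusted p = 0.0113). Vps33b, a Munc18 relative of late endosomes, changed by -0.93 ± 0.22 in db/db (adjusted p = 0.0165, up to 0.0692 without single libraries). Stx18, a syntaxin of the endoplasmic reticulum, was the gene of this list that rose in db/db, by 0.60 ± 0.15 (adjusted p = 0.0199, up to 0.0806 without single libraries).

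Of 10 tested genes of the exocyst and its Ral GTPases other than Exoc4, 1 rose and 2 fell in db/db against db/+ (30%, where 37.8% of all genes passed), and 3 rose and 1 fell in KO_db/db against db/+ (40%, where 38.4% did). Between KO_db/db and db/db 0 passed in edgeR (0.319% of all genes), with 2 at an unadjusted p under 0.05 (20.9% of all genes). Exoc8 was at 7.74, 6.86 and 9.45 CPM in db/+, 14.8 and 15.0 CPM in db/db, and 11.2 and 14.3 CPM in KO_db/db, a change of 0.88 ± 0.18 in db/db (adjusted p = 0.00994). Exoc2, or Sec5, which binds Rala, was at 35.6, 43.7 and 38.8 CPM in db/+, 25.0 and 23.6 CPM in db/db, and 25.5 and 28.8 CPM in KO_db/db, a change of -0.71 ± 0.13 in db/db (adjusted p = 0.00646). Rala changed by -0.53 ± 0.11 in db/db (adjusted p = 0.0115). In Exoc8 and Exoc2, both diabetic groups lay on one side of db/+.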
